A study of Mus musculus with 12 samples.

Results

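The comparison is between MC38 tumors of mice given anti-PD-1 alone and MC38 tumors of vehicle-treated mice, called CK. Its members are the 3 tumors whose labels give the antibody without PB-020 and the 3 CK tumors, 6 of the 12 tumors of the series. MC38 is a mouse colon adenocarcinoma line, grown here under the skin of C57BL/6 mice, so that transcripts of the cancer cells and of the host were read together. Of the 18211 genes in the deposited table, 13563 had enough counts to be tested.

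PD-1, the product of Pdcd1, is an inhibitory receptor that T cells display after activation. When it binds its ligands PD-L1 (Cd274) and PD-L2 (Pdcd1lg2) on tumor or myeloid cells, signaling from the T cell receptor is dampened. An antibody that blocks PD-1 can free CD8 T cells to kill and to secrete interferon gamma, which acts on neighbouring cells through its receptor and JAK kinases and switches on genes for antigen presentation, chemokines, antiviral GTPases and also PD-L1 itself.

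The mice were 5-week-old females and were assigned to treatment 7 days after MC38 cells had been injected. The anti-PD-1 mice received 200 μg of antibody RMP1-14 by intraperitoneal injection on days 9, 12, 15 and 18, and the CK mice received vehicle. The sources used here name no control antibody for the CK mice and do not say whether the anti-PD-1 mice also received the oral vehicle, so antibody injection as such, the vehicle and blockade of PD-1 cannot be told apart. The other 6 tumors came from mice given PB-020, a compound studied as an IGF1R inhibitor, at 50 mg/kg per day alone or with the same antibody. MC38 is 1 established line. Whether the replicate tumors of a group shared a cage or litter is not stated. P values measure the spread between single tumors within groups, estimated from all 12 tumors of the series unless another fit is named. The epithelial markers expected of a colon adenocarcinoma were nearly absent: villin (Vil1) was at 0.02 to 0.04 FPKM and Epcam at 0.06 to 0.09 FPKM in the 6 tumors, both below the filter, as were Krt20 and Cdx2. E-cadherin (Cdh1) stood at 1.59 to 3.44 FPKM and the mesenchymal filament vimentin (Vim) at 1837 to 2167 FPKM. FPKM is a level scaled to transcript length and to the number of fragments in the library.

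Total expected counts were close, 16732304 to 17217035 in CK and 16859631 to 16928818 in anti-PD-1. A pair of libraries stood apart from their groups. In anti-PD-1 tumor 1 the 25 tested skeletal muscle genes summed to 1060 FPKM, against 142.9 to 237.4 in the other 5 tumors, and its mean over these genes was 5.50 on the log2 CPM scale, against 0.58 to 2.47 in all 11 other libraries. In CK tumor 3 the neutrophil genes summed to 773.5 FPKM, against 27.4 and 28.1 in the other CK tumors and 48.9 to 111.9 in the anti-PD-1 tumors, and the adipocyte genes summed to 306.2 FPKM, against 40.0 to 64.5 in the other 5 tumors. The sums for 6 lists are plotted by tumor. Because of tumor 1, each count is given both for all 3 anti-PD-1 tumors and without tumor 1, and a gene is said to hold where it was called in the same direction both times.

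**Figure D1:**
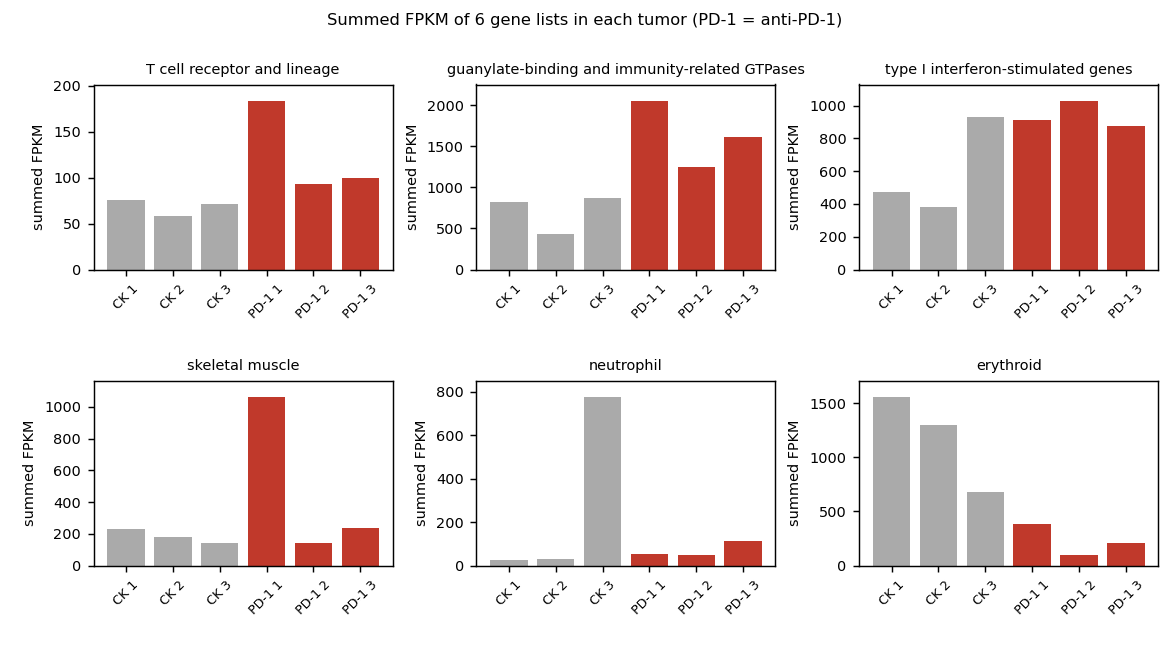
Bars give the summed FPKM of each gene list in the 3 CK tumors (grey) and the 3 anti-PD-1 tumors (red). Anti-PD-1 tumor 1 has the highest muscle sum (1060 FPKM), CK tumor 3 the highest neutrophil sum (773.5 FPKM), and all 3 anti-PD-1 tumors lie below all 3 CK tumors for the erythroid genes and above them for the T cell and GTPase lists.

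Against CK, edgeR called 1120 DE genes at a Benjamini-Hochberg adjusted p under 0.05. Of these, 567 were raised (4.18% of genes tested) and 553 were lowered (4.08%). Without tumor 1 there were 625, 292 raised and 333 lowered, and 524 genes held, 262 raised and 262 lowered (1.93% of genes tested each way). The 524 were 46.8% of the calls with 3 anti-PD-1 tumors and 83.8% of those without tumor 1, and 0 of the 1120 had the opposite sign without it. By mean FPKM, 118 raised and 84 lowered genes changed more than 2-fold. In 3949 of the genes tested (29.1%) the 3 anti-PD-1 tumors all lay above or all below the 3 CK tumors, and 1109 of the 1120 called genes were among them. At the thresholds of the study's methods, a fold over 1.5 with an unadjusted p under 0.05, taken here from edgeR, 974 genes passed with 3 tumors (611 raised, 363 lowered) and 771 without tumor 1 (320 raised, 451 lowered). With the study's kind of test on each gene's FPKM the balance turned, 210 raised and 320 lowered of 530, and limma on log2(FPKM + 1) gave 461.

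These counts rest on the spread of all 12 libraries and on single tumors. With only the 6 CK and anti-PD-1 libraries in the fit, edgeR called 3 genes, with 2955 at an unadjusted p under 0.05. Leaving out CK tumor 2 gave 137 genes, anti-PD-1 tumor 3 238, CK tumor 3 637 and anti-PD-1 tumor 2 1905. In a bulk tumor, more cells of a type and more RNA per cell cannot be told apart, which applies to every cell type list below. List counts with all 6 tumors stand beside shares over all genes tested of 4.18% raised, 4.08% lowered and 1.93% held each way. Without CK tumor 2, edgeR left 2 raised genes of the interferon gamma axis, 4 of MHC class I, 1 of proliferation and 3 of glycolysis, and 1 lowered endothelial, 3 fibroblast and 2 protease genes. Without anti-PD-1 tumor 3 these counts were 2, 3, 2, 2, 1, 5 and 2, to be read beside the counts with all 6 tumors given for each list.

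**Figure D2:**
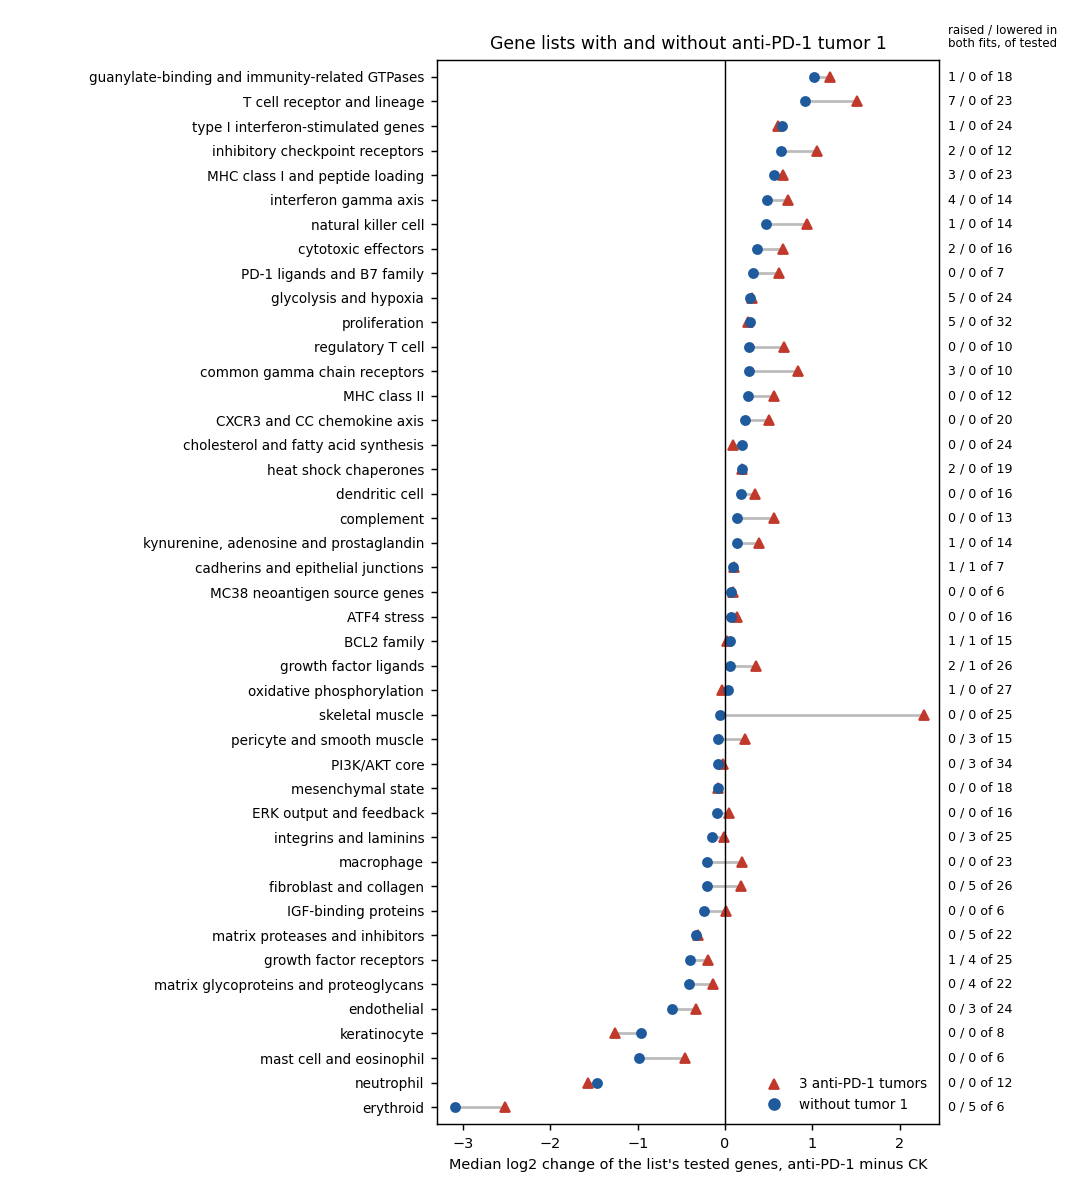
Each row is a gene list with at least 6 tested genes, and the horizontal axis is the median log2 change, anti-PD-1 minus CK, with all 3 anti-PD-1 tumors (triangles) and without tumor 1 (circles). Numbers at the right give the genes raised and lowered in both fits, of those tested. The muscle median moves from 2.28 to −0.05 without tumor 1, and the GTPase, T cell and erythroid lists stay on their side of 0.

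Many genes of the T cell receptor complex and the T cell lineage rose. Of 23 tested, 16 were raised and 0 lowered, 7 held without tumor 1, and the list's median log2 change was 1.51 with tumor 1 and 0.92 without it, beside 0.00 and −0.01 for all genes. All 23 changes were positive both times, and in 19 the 3 anti-PD-1 tumors lay above the 3 CK tumors. Over all genes tested, 29.1% had groups that lay apart in either direction. The target gene was raised as well: Pdcd1 (gene 18566, chromosome 1, 94038305 to 94052553 of GRCm38) was at 0.81, 0.79 and 1.28 FPKM in CK tumors 1 to 3 and at 5.32, 2.65 and 1.86 FPKM in anti-PD-1 tumors 1 to 3. Its groups did not overlap, and its log2 change was 1.79 (standard error 0.37, edgeR adjusted p = 0.017), or 1.26 without tumor 1 (adjusted p = 0.031). The antibody binds the protein and leaves the gene in place, so this level is no check of the labels.

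The coreceptor chains that mark killer T cells both rose and held. Cd8b1 stood at 2.11, 1.58 and 1.74 FPKM in CK and at 12.1, 4.98 and 4.26 FPKM in anti-PD-1, a log2 change of 1.98 (adjusted p = 0.019 with and without tumor 1, where the change was 1.38). Cd8a stood at 2.33, 1.86 and 2.88 FPKM in CK and at 10.3, 4.45 and 3.84 FPKM in anti-PD-1. Both chains were highest in tumor 1 and above every CK tumor in the other 2. The helper T cell coreceptor Cd4 was different, at 1.59, 0.96 and 1.01 FPKM in CK and 3.96, 1.12 and 1.39 FPKM in anti-PD-1, with groups that overlapped and no call (log2 change 0.87, adjusted p = 0.20, and 0.10 without tumor 1).

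The signaling chain Cd3d was at 0.69, 0.70 and 1.05 FPKM in CK and at 5.74, 1.67 and 2.31 FPKM in anti-PD-1 (log2 change 2.03, adjusted p = 0.018). The costimulatory receptor Cd27 was at 0.36, 0.37 and 0.77 FPKM in CK and at 3.77, 1.16 and 1.83 FPKM in anti-PD-1 (log2 change 2.27, adjusted p = 0.0097). Cd2 and the kinase gene Lck also held, with log2 changes of 1.53 and 1.16. Raised with tumor 1 but not without it were Cd3e, Cd3g, Cd247, Cd6, Cd28, Lat, Skap1, Bcl11b and Ubash3a. When single tumors were left out the list's raised genes numbered 0 without CK tumor 2, 5 without CK tumor 1 or 3, 10 without anti-PD-1 tumor 3 and 21 without anti-PD-1 tumor 2. The number of all genes called also moved widely between these fits. It is given above, except for the fit without CK tumor 1.

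**Figure D3:**
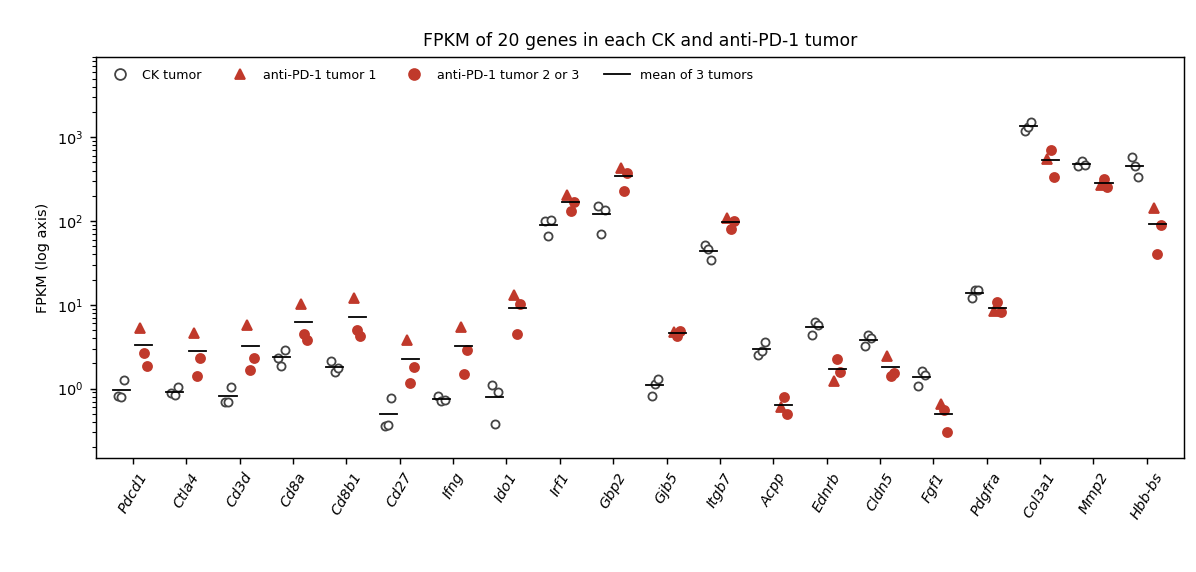
Points are the FPKM of 20 genes in each tumor on a log axis, open circles for CK, a red triangle for anti-PD-1 tumor 1 and red circles for anti-PD-1 tumors 2 and 3, with bars at the mean of each group of 3. In every gene shown the 3 anti-PD-1 tumors lie on one side of the 3 CK tumors, and for the T cell genes tumor 1 is the highest.

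Inhibitory receptors other than PD-1 were also among the raised genes. Of 12 tested, 6 were raised (Pdcd1, Ctla4, Lag3, Tigit, Tox and Cd96) and 0 lowered, with a list median of 1.05 (0.64 without tumor 1), and Pdcd1 and Ctla4 held. Ctla4, which competes with CD28 for its ligands, was at 0.88, 0.83 and 1.04 FPKM in CK and at 4.63, 1.42 and 2.29 FPKM in anti-PD-1 (log2 change 1.62, adjusted p = 0.018, and 1.05 without tumor 1). The groups of Ctla4 did not overlap, with tumor 1 highest. Tox, a transcription factor of exhausted T cells, was at 0.08, 0.18 and 0.27 FPKM in CK and at 0.69, 0.54 and 0.45 FPKM in anti-PD-1.

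The PD-1 ligands did not pass the test. Cd274 was at 8.50, 6.16 and 15.4 FPKM in CK and at 31.1, 14.1 and 21.3 FPKM in anti-PD-1, where CK tumor 3 exceeded anti-PD-1 tumor 2, with a log2 change of 1.17 ± 0.36 (SE, adjusted p = 0.078, and 0.85 without tumor 1). Pdcd1lg2 was at 0.50, 0.22 and 0.48 FPKM in CK and at 5.75, 0.60 and 0.80 FPKM in anti-PD-1, so that its log2 change of 2.59 rested mostly on tumor 1 (0.84 without it). In the list of 7 B7-family genes, 0 passed with or without tumor 1.

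Of 16 cytotoxic genes 5 were raised (Fasl, Nkg7, Ifng, Tnfsf10 and Serpinb9) and 0 lowered, and Nkg7 and Ifng held. Nkg7, a component of cytotoxic granules, was at 7.33, 5.50 and 6.57 FPKM in CK and at 33.5, 11.2 and 13.6 FPKM in anti-PD-1 (log2 change 1.61, adjusted p = 0.034, and 0.96 without tumor 1). Perforin (Prf1) was at 9.27, 3.77 and 8.46 FPKM in CK and at 11.8, 6.03 and 8.04 FPKM in anti-PD-1, and its groups overlapped (log2 change 0.29). Granzyme B (Gzmb) had a log2 change of 0.78 (adjusted p = 0.27). The granzymes Gzmc, Gzmd, Gzme, Gzmf and Gzmg, which lie next to each other and share sequence, had log2 changes of −0.40 to −0.16, none of which passed.

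Natural killer receptors had 4 of 14 genes raised (Klrk1, Klrc1, Klre1 and the transcription factor Tbx21), all of which CD8 T cells can also express, and Klrk1 held. The NK-defining receptor Ncr1 was at 1.41, 0.85 and 0.95 FPKM in CK and at 1.83, 0.58 and 1.13 FPKM in anti-PD-1, with groups that overlapped (log2 change 0.16). Of 10 regulatory T cell genes Foxp3, their lineage factor, was the 1 raised, from 0.31, 0.48 and 0.37 FPKM to 1.53, 0.62 and 0.69 FPKM (log2 change 1.33, adjusted p = 0.036). It did not hold without tumor 1 (0.81, adjusted p = 0.12).

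Receptors of the common gamma chain cytokines had 3 of 10 genes raised, and all 3 held. Il2rg, the shared chain itself, was at 43.9, 30.4 and 43.9 FPKM in CK and at 107.1, 60.8 and 70.5 FPKM in anti-PD-1 (log2 change 1.04, adjusted p = 0.023). Il7r, the receptor of a survival cytokine of T cells, went from 2.96, 3.08 and 2.99 FPKM to 10.5, 4.59 and 6.26 FPKM (log2 change 1.26, adjusted p = 0.022). Il15ra, which presents interleukin 15, had a log2 change of 0.92. None of the 3 had a CK tumor at or above an anti-PD-1 tumor.

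In the interferon gamma axis the ligand and several of its outputs rose, whereas the receptors and kinases did not pass the test. Of 14 genes 7 were raised (among them Ifng, Irf1, Irf8, Socs1, Nlrc5 and Ido1) and 0 lowered, with a list median of 0.72 (0.48 without tumor 1), and Ifng, Irf1, Irf8 and Ido1 held. Ifng (gene 15978, chromosome 10, 118441046 to 118445894) was at 0.82, 0.72 and 0.73 FPKM in CK and at 5.36, 1.5 and 2.85 FPKM in anti-PD-1. The CK tumors lay close together and every anti-PD-1 tumor was above them, for a log2 change of 2.10 ± 0.45 (SE, adjusted p = 0.018) and 1.54 without tumor 1 (adjusted p = 0.043). Log2 changes of the receptor chains Ifngr1 and Ifngr2 and the kinases Jak1 and Jak2 lay between −0.08 and 0.19.

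Ido1, which breaks tryptophan down toward kynurenine and is itself an interferon gamma target, had the largest change among these genes. It was at 1.1, 0.38 and 0.92 FPKM in CK and at 13.0, 4.52 and 10.2 FPKM in anti-PD-1, where the lowest treated tumor was above the highest CK tumor. The log2 change was 3.52 (standard error 0.44, adjusted p = 0.0067) and 3.21 without tumor 1 (adjusted p = 0.0094). In the list of tryptophan, adenosine and prostaglandin genes it was the only 1 of 14 raised.

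The transcription factor Irf1 was at 98.6, 65.5 and 103.5 FPKM in CK and at 206.3, 131.8 and 166.4 FPKM in anti-PD-1 (log2 change 0.93, adjusted p = 0.018, and 0.77 without tumor 1). The 6 tumors separated by group.

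Guanylate-binding proteins and immunity-related GTPases, which attack the vacuoles of intracellular microbes, are the classic abundant products of interferon gamma. All 18 tested had a positive change with and without tumor 1, and the median was 1.20 (1.02 without tumor 1). In 16 the 3 anti-PD-1 tumors lay above the 3 CK tumors, beside 29.1% of all genes apart in either direction. The test called 6 of them (Gbp2, Gbp4, Gbp7, Gbp8, Gbp10 and Gvin1), and Gvin1 held. Many are close paralogs, so that reads may be divided between them. Gbp2 was at 151.8, 70.2 and 136.7 FPKM in CK and at 432.8, 225.1 and 372.8 FPKM in anti-PD-1 (log2 change 1.54, adjusted p = 0.042, and 1.35 with adjusted p = 0.12 without tumor 1). The list's calls numbered 14 with DESeq2, 8 without anti-PD-1 tumor 2 and 0 without anti-PD-1 tumor 3. Calls over all genes tested moved the same way in each of these fits.

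Promoters of raised genes from both lists are shown because regulation of such genes through these motifs is well known. The windows are the 250 bases before the start site, from RefSeq on GRCm38.p6, for 5 raised genes whose window holds a gamma-activated sequence (TTCNNNGAA, its own reverse complement) or a response element of the ISRE type (GAAA, any 2 bases, GAAA, on either strand). Capitals mark these letters, and all windows are printed 5′ to 3′ on the gene's own strand:
Irf1, chr11:53769764-53770013, plus strand: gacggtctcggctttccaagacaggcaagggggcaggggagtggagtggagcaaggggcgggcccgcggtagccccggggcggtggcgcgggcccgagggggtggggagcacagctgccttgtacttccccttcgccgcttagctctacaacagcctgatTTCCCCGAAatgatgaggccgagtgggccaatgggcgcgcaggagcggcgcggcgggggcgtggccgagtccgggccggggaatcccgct
Irf8, chr8:120736108-120736357, plus strand: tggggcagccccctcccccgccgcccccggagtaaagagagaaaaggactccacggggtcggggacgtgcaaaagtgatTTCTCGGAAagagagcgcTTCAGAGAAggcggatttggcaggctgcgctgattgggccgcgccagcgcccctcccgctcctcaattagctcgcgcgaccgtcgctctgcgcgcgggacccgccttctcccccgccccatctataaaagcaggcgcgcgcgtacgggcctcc
Socs1, chr16:10785537-10785786, minus strand: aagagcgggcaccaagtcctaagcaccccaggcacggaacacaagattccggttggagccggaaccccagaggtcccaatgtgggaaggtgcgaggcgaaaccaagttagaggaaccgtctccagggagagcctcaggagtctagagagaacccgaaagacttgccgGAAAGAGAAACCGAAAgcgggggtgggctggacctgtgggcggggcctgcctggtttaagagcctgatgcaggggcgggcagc
Gbp2, chr3:142620413-142620662, plus strand: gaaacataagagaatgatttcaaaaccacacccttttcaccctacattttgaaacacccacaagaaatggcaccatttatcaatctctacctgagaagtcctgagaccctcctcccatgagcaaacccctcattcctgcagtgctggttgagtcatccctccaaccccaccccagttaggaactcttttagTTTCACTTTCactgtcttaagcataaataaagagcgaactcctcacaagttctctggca
Gbp7, chr3:142530086-142530335, plus strand: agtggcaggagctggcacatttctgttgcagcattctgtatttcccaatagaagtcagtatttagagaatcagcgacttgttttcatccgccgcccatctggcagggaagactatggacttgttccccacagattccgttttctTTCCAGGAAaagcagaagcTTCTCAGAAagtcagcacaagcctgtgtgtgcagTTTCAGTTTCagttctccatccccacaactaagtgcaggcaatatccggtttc

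Of all 32851 promoter windows, 7.02% held the gamma-activated letters, 2.98% the ISRE letters and 0.332% both. Of the 12 windows found for 11 GTPase genes, 6 held the former, 10 the latter and 6 both, and several of these windows belong to tandem paralogs with shared sequence. Of the 13 windows found for 10 genes of the interferon gamma axis, 4 held the former and 1 the latter. The match lay 90 bases before the start in Irf1 and 59 bases before it in Gbp2. Ifng, a raised gene whose window is not printed, also had a gamma-activated match, 249 bases before the start. Irf8 had 2 gamma-activated matches, and Socs1 had 2 ISRE matches that overlap each other. These are matches of letters and not measured binding sites.

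MHC class I presents peptides made inside the cell to CD8 T cells. Of 23 genes 10 were raised and 0 lowered, all 23 changes were positive with and without tumor 1, and the median was 0.66 (0.56 without it). The raised genes were the peptide transporters Tap1 and Tap2, the loading factors Tapbp and Tapbpl, the immunoproteasome subunits Psmb8 and Psmb9, its activators Psme1 and Psme2, the trimming peptidase Erap1, and H2-Q6. Erap1 held, at 26.1, 18.8 and 26.4 FPKM in CK and 37.3, 32.8 and 36.8 FPKM in anti-PD-1 (log2 change 0.60, adjusted p = 0.011, and 0.58 without tumor 1). Tapbpl held too, with a log2 change of 0.95.

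H2-Q6, a class Ib gene with near-identical neighbours whose reads may be divided, was at 2.98, 3.62 and 2.96 FPKM in CK and at 14.5, 8.18 and 8.11 FPKM in anti-PD-1 (log2 change 1.71, adjusted p = 0.0067, and 1.39 without tumor 1). The classical heavy chains were abundant in both groups and did not pass: H2-K1 stood at 904 FPKM in CK tumor 1, 678 in CK tumor 2 and 1007 in CK tumor 3, and at 972 to 1138 FPKM in anti-PD-1. B2m had a log2 change of 0.38 (adjusted p = 0.17). In MHC class II, 2 of 12 genes were raised (H2-DMb1 and H2-Ob) and 0 held, and the median was 0.56 with tumor 1 and 0.27 without it.

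Among 20 chemokine and chemokine receptor genes, 2 were raised, among them Cxcl9, and 0 held. Cxcl9, which draws CXCR3-bearing T cells, was at 38.7, 16.4 and 36.0 FPKM in CK and at 113.6, 62.1 and 80.8 FPKM in anti-PD-1, with no overlap (log2 change 1.51, adjusted p = 0.040, and 1.26 with adjusted p = 0.11 without tumor 1). Ccl5, a product of activated T cells, was at 144.8 FPKM in tumor 1 and at 27.7 and 20.4 FPKM in tumors 2 and 3, against 11.8 to 19.5 FPKM in CK.

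Type I interferon-stimulated genes are the antiviral program shared by most cells. All 24 had positive changes with and without tumor 1, and their median was 0.61. Isg20 alone was raised, beside 4.18% of all genes tested, and 5 had groups that did not overlap, beside 29.1%. CK tumor 3 had a level like the anti-PD-1 tumors: the list summed to 933.3 FPKM there, against 469.9 and 381.1 FPKM in CK tumors 1 and 2 and 876.4 to 1026 FPKM in anti-PD-1. Isg15, for example, was at 30.9, 19.9 and 78.3 FPKM in CK and 58.1, 79.1 and 57.8 FPKM in anti-PD-1. Without CK tumor 3 the median was 1.12, and 2 genes were called.

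Myeloid genes showed no call with 3 anti-PD-1 tumors. Of 23 macrophage genes 0 passed, and the median moved from 0.20 to −0.20 when tumor 1 was left out. There, 4 genes were lowered. Mrc1, the mannose receptor, was at 28.8, 28.0 and 27.1 FPKM in CK, and at 38.4 FPKM in tumor 1 but 16.8 and 14.8 FPKM in tumors 2 and 3 (log2 change without tumor 1 −0.80, adjusted p = 0.0011). Cd163, a scavenger receptor of tissue macrophages, was at 1.40, 1.30 and 1.07 FPKM in CK, 1.39 FPKM in tumor 1, and 0.10 and 0.06 FPKM in tumors 2 and 3 (log2 change without tumor 1 −3.99, adjusted p = 0.0011). Csf1r and Lyve1 were the other pair. Tumors 2 and 3 lay below every CK tumor in these 4 genes, and tumor 1 did not.

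The 12 neutrophil genes had 0 calls, and their median of −1.56 turned to 1.32 when CK tumor 3 was left out. S100a8 was at 2.60, 2.42 and 163.0 FPKM in CK and at 2.80, 4.30 and 8.73 FPKM in anti-PD-1. Dendritic cell genes (16), mast cell and eosinophil genes (6), B and plasma cell genes (4) and adipocyte genes (5) had 0 calls each. The defining B cell marker Ms4a1 was at 0 to 0.06 FPKM in the 6 tumors, below the filter, Tnfrsf13c was at 1.64 to 3.28 FPKM with groups that overlapped, and Jchain reached 9.08 FPKM in tumor 1. Of the adipocyte genes Adipoq, Cfd, Fabp4 and Lipe were highest in CK tumor 3, and the list's median of −1.16 became 0.01 without that tumor. Of 13 complement genes the protease gene C1s1 was raised, and did not hold.

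Erythroid genes had the lowest median of the 45 lists. All 6 were lowered, 5 held, and the median was −2.52 (−3.09 without tumor 1). All 6 had the 3 anti-PD-1 tumors below the 3 CK tumors, beside 29.1% of all genes apart in either direction. Hbb-bs, the adult beta globin, was at 583, 450 and 335 FPKM in CK and at 143.8, 40.8 and 88.9 FPKM in anti-PD-1 (log2 change −2.30, standard error 0.52, adjusted p = 0.035). Alas2, the heme synthesis enzyme of red cell precursors, was at 5.91, 4.74 and 3.33 FPKM in CK and at 1.52, 0.23 and 0.42 FPKM in anti-PD-1 (log2 change −2.67, adjusted p = 0.025, and −3.81 without tumor 1). The globins Hba-a1 and Hba-a2 share most of their sequence, so that their separate levels are uncertain, and both fell. The list's calls numbered 0 without CK tumor 2 or without anti-PD-1 tumor 3, and 1 without CK tumor 1. Calls over all genes were also far fewer without CK tumor 2 or without anti-PD-1 tumor 3, as given above.

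Of 24 endothelial genes 4 were lowered (Cldn5, Nos3, Apln and Dll4) and 0 raised, 3 held, and the median was −0.33 (−0.61 without tumor 1). Claudin 5 (Cldn5), which seals endothelial junctions, was at 3.21, 4.32 and 3.96 FPKM in CK and at 2.46, 1.40 and 1.54 FPKM in anti-PD-1 (log2 change −1.07, adjusted p = 0.025). The Notch ligand of sprouting tip cells, Dll4, was at 2.92, 3.69 and 4.74 FPKM in CK and at 2.11, 2.06 and 1.83 FPKM in anti-PD-1 (log2 change −0.90, adjusted p = 0.0094). Apln, another tip cell gene, fell by 0.96 on the log2 scale and did not hold. The general endothelial markers Pecam1 and Cdh5 did not pass (−0.21 and −0.53), and tumor 1 lay within the CK range for both. Tumors 2 and 3 lay below every CK tumor for both. Without tumor 1 the changes were −0.43 and −0.76 (edgeR adjusted p = 0.075 and 0.080). Flt1, Esam and S1pr1 were called lowered only without tumor 1.

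Of 15 pericyte and smooth muscle genes, the pericyte potassium channel genes Kcnj8 and Abcc9 and the receptor gene Pdgfrb were lowered and held. Kcnj8 was at 2.56, 2.54 and 3.88 FPKM in CK and at 1.19, 1.39 and 0.68 FPKM in anti-PD-1 (log2 change −1.44, adjusted p = 0.0084). Cspg4, the proteoglycan NG2, was raised and did not hold (0.33). The contractile genes Acta2, Tagln and Myh11 did not pass.

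Part of the extracellular matrix genes fell. Of 26 fibroblast and collagen genes 7 were lowered (Col3a1, Col5a1, Col6a1, Col6a2, Col18a1, Dcn and Pdgfra) and 0 raised, and all but Col18a1 and Dcn held. Col3a1, the fibrillar collagen of loose stroma, was at 1177, 1340 and 1531 FPKM in CK and at 548, 700 and 338 FPKM in anti-PD-1. The groups stood far apart, with a log2 change of −1.33 ± 0.22 (SE, adjusted p = 0.0085) and −1.35 without tumor 1 (adjusted p = 0.038). Col6a1, a chain of the microfibrillar collagen VI, was at 372, 373 and 399 FPKM in CK and at 189, 270 and 180.1 FPKM in anti-PD-1 (log2 change −0.82, adjusted p = 0.0067), and Col6a2 gave −0.87.

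Col1a1, a chain of the most abundant collagen of skin and bone, was not called. It was at 72.1, 72.3 and 135.0 FPKM in CK and at 340, 60.4 and 98.0 FPKM in anti-PD-1, where tumor 1 was the highest of the 6. Lum, Dpt, Col14a1 and Postn were likewise highest in tumor 1. The list's median was 0.18 with tumor 1 and −0.20 without it. Tumor 1 was also the tumor with the high muscle sum, and the part of this in the collagen values was not tested.

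Of 22 matrix glycoprotein genes Vtn, Thbs3, Sparc and Vcan were lowered and held. Sparc, which binds collagen, was at 974, 951 and 922 FPKM in CK and at 782, 747 and 608 FPKM in anti-PD-1 (log2 change −0.40, adjusted p = 0.029). Of 22 protease and inhibitor genes Mmp2, Mmp14, Adamts1, Adamts12 and Plat were lowered and held, and 0 were raised. Mmp2, a gelatinase that MMP14 activates, was at 451, 526 and 466 FPKM in CK and at 267, 319 and 256 FPKM in anti-PD-1 (log2 change −0.76, standard error 0.12, adjusted p = 0.0068, and −0.71 without tumor 1). Of 25 integrin and laminin genes Itga7, Lamb1 and Lamc1 were lowered and held. In each of these 12 genes the 3 anti-PD-1 tumors lay below the 3 CK tumors. Groups without overlap were found in 1109 of all 1120 called genes, so this adds little to the calls.

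Among growth factors, which include ligands of the receptors upstream of AKT, Hbegf, Nrg1, Pdgfb and Efna1 were raised and Fgf1, Kitl and Efna5 were lowered, of 26 tested. Hbegf and Nrg1, both ligands of the EGF receptor family, held, as did Fgf1, which was at 1.06, 1.61 and 1.46 FPKM in CK and at 0.66, 0.55 and 0.30 FPKM in anti-PD-1 (log2 change −1.40, adjusted p = 0.020). Of 25 receptor genes Epha2 was raised and 5 were lowered, beside 4.18% and 4.08% of all genes tested. Pdgfra, the PDGF receptor of fibroblasts, was at 12.1, 15.1 and 14.8 FPKM in CK and at 8.47, 10.7 and 8.24 FPKM in anti-PD-1 (log2 change −0.59, adjusted p = 0.010). Pdgfrb, the growth hormone receptor gene Ghr and the lysophosphatidic acid receptor gene Lpar1 held as well, and Igf2r did not. Igf1r, the target of PB-020, was at 10.1 to 11.9 FPKM in all 6 tumors (log2 change −0.02, adjusted p = 0.87).

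Of 34 core genes of PI3K and AKT signaling, Irs1, Sgk1 and Bcl2l11 were lowered and held, and 0 were raised. Over all genes tested 1.93% were lowered and held, and 4.18% were raised. Irs1, the adaptor of insulin and IGF1 receptors, was at 2.92, 3.10 and 3.06 FPKM in CK and at 2.33, 2.33 and 2.18 FPKM in anti-PD-1 (log2 change −0.39, adjusted p = 0.010). The list's median was −0.03, beside 0.00 for all genes, and Akt1 and Mtor had changes of −0.08 and 0.07. In the BCL2 family, Bcl2l11, which encodes the death protein BIM, fell by 0.53, and the death genes Pmaip1 (NOXA) and Bak1 rose by 0.78 and 0.31. Bcl2a1d rose too (0.64), Bak1 and Bcl2a1d did not hold, and 15 genes were tested.

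Proliferation genes had small changes, all in one direction. All 32 had positive changes with and without tumor 1, with medians of 0.26 and 0.28, and 5 were raised and held (Top2a, Ccna2, Foxm1, Cdt1 and Rrm2). Top2a, the topoisomerase of dividing cells, was at 173.7, 143.1 and 145.8 FPKM in CK and at 228.8, 210.9 and 247.1 FPKM in anti-PD-1 (log2 change 0.59, adjusted p = 0.016, and 0.60 without tumor 1). Mki67 was at 96.4, 86.7 and 84.4 FPKM in CK and at 106.4, 112.6 and 128.0 FPKM in anti-PD-1, apart by group but not called (0.39, adjusted p = 0.091).

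Of 24 glycolysis and hypoxia genes 8 were raised and 0 lowered, with medians of 0.31 and 0.28, and Slc2a1, Hk2, Pfkl, Pgk1 and Bnip3 held. The glucose transporter gene Slc2a1 was at 67.5, 67.1 and 64.8 FPKM in CK and at 124.5, 88.8 and 115.4 FPKM in anti-PD-1 (log2 change 0.74, adjusted p = 0.0094, and 0.65 without tumor 1). Pgk1, which makes ATP in glycolysis, was at 603, 531 and 454 FPKM in CK and at 926, 733 and 916 FPKM in anti-PD-1 (log2 change 0.72, adjusted p = 0.0084). The classic hypoxia gene Car9 did not pass (0.24), nor did Gapdh (0.07). Of 6 genes known to give rise to MC38 neoantigens 0 passed, and their log2 changes were between −0.17 and 0.21.

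The genes with the smallest p, among those that held, separated by group and reached a mean of 1 FPKM in a group, were 12 raised and 12 lowered genes, of 511 that met these conditions. Gjb5, a gap junction connexin of epithelia, was at 0.82, 1.14 and 1.31 FPKM in CK and at 4.73, 4.28 and 4.80 FPKM in anti-PD-1. The 3 treated tumors nearly coincided, and the log2 change was 2.10 (standard error 0.27, adjusted p = 0.0067) and 2.09 without tumor 1. Itgb7, the integrin chain that pairs with the αE and α4 chains on mucosal lymphocytes, was at 52.2, 46.5 and 34.4 FPKM in CK and at 107.4, 80.4 and 100.9 FPKM in anti-PD-1 (log2 change 1.13). The other raised genes were H2-Q6, Ido1, the transcription factor genes Bhlhe40 and Dlx3, the retrovirus restriction gene Apobec3, the small GTPase gene Arl4c, the exchange factor genes Rasgef1a and Arhgef3, Lmo7 and LOC108167440, with log2 changes of 0.55 to 3.52.

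Acpp (gene 56318, chromosome 9, 104288240 to 104337722), an acid phosphatase that can make adenosine, had the smallest p of all. It was at 2.53, 2.79 and 3.63 FPKM in CK and at 0.60, 0.79 and 0.50 FPKM in anti-PD-1. The highest treated tumor was under the lowest CK tumor by a wide margin, with a log2 change of −2.26 ± 0.24 (SE, adjusted p = 0.0031) and −2.25 without tumor 1. Ednrb, the endothelin receptor B, was at 4.38, 6.27 and 5.79 FPKM in CK and at 1.24, 2.27 and 1.56 FPKM in anti-PD-1 (log2 change −1.65, adjusted p = 0.0067). Lbp, the lipopolysaccharide-binding protein, was at 19.6, 23.1 and 24.04 FPKM in CK and at 8.69, 10.1 and 7.71 FPKM in anti-PD-1 (log2 change −1.31). The other lowered genes were Arhgef28, Rtkn, the junction gene Jup, Tenm3, C1qtnf1, Trp53i11, the sestrin gene Sesn1, Nova1 and the transcription factor gene Tcf4, with log2 changes from −1.1 to −0.61.

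**Figure D4:**
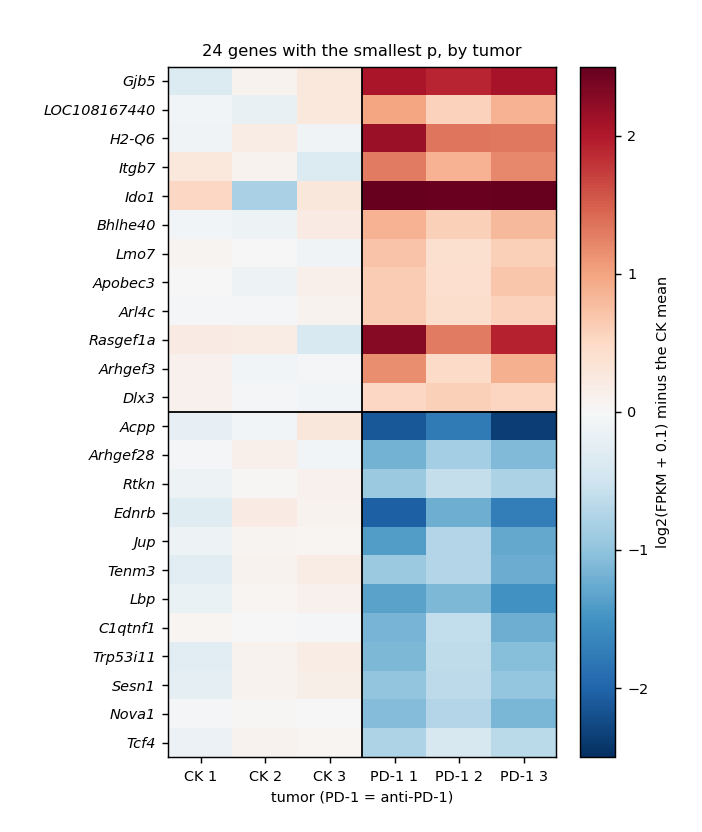
Colors give log2(FPKM + 0.1) of each tumor minus the mean of the 3 CK tumors, for the 12 raised genes (top) and 12 lowered genes (bottom) with the smallest p. Red is higher and blue lower, and the scale ends at 2.5 either way. In every gene all 3 anti-PD-1 tumors differ from CK in the same direction, as the choice of these genes required.

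By size of change, the raised genes that held were led by Mcpt1, Brinp3, Ido1, Cd27, Penk and Ifng, and the lowered ones by Alas2, Hba-a2, Enpp3, Hbb-bs, Hba-a1 and Acpp. Mcpt1, a mast cell protease gene, was at 0.07, 0.07 and 0.00 FPKM in CK and at 1.47, 0.33 and 1.69 FPKM in anti-PD-1 (log2 change 4.48, adjusted p = 0.0091, on very few CK reads), while the mast cell markers Cpa3, Cma1 and Tpsb2 had changes of −0.31, −0.45 and −0.48. Penk, the enkephalin precursor, was at 0.81, 0.28 and 0.61 FPKM in CK and at 3.39, 1.63 and 2.37 FPKM in anti-PD-1 (log2 change 2.15, adjusted p = 0.0084). Enpp3, an ectonucleotidase, was at 4.25, 7.99 and 5.87 FPKM in CK and at 0.82, 2.10 and 0.60 FPKM in anti-PD-1 (log2 change −2.34, adjusted p = 0.012). The groups of Mcpt1, Penk and Enpp3 did not overlap, which was a condition of their choice.

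The same antibody was given on top of PB-020, and that comparison (PB-020/anti-PD-1 against PB-020) shares no tumor with the one above, although all 12 libraries share one estimate of the spread. It had 455 called genes (3.35% of genes tested), 169 raised and 286 lowered. Leaving out 1 of its tumors took this count to between 0 and 397 (0 without combination tumor 1, with 2320 genes at an unadjusted p under 0.05), DESeq2 gave 1109 and voom quality weights gave 2133, and the shared calls below rest on it. Of the 567 genes raised by anti-PD-1 alone, 559 (98.6%) had a positive change there and 116 (20.5%) were called in that direction, and of the 553 lowered genes 550 (99.5%) had a negative change and 199 (36.0%) were called. Over all genes tested the 2 changes had the same sign in 77.0%, and 3.35% were called in the same direction. None of the 1120 was called in the opposite direction.

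Of the raised genes, 70 of the 262 that held without tumor 1 (26.7%) and 46 of the 305 that did not (15.1%) were called there. Of the lowered genes, 143 of 262 (54.6%) and 56 of 291 (19.2%) were called there, and these differences were not tested. Median changes were smaller on top of PB-020, 0.34 against 0.49 for the raised genes and −0.37 against −0.48 for the lowered genes, and the genes had been chosen on the changes under the antibody alone. In a direct test of the difference between the 2 antibody contrasts, edgeR called 0 genes, with 310 at an unadjusted p under 0.05, and DESeq2 also called 0.

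Ido1 and Acpp passed the test in both settings. Ido1 was at 2.27, 1.18 and 1.39 FPKM in PB-020 and at 7.34, 8.74 and 8.69 FPKM in the combination (log2 change 2.35, adjusted p = 0.024). Acpp was at 2.54, 2.36 and 1.80 FPKM in PB-020 and at 0.58, 1.04 and 0.54 FPKM in the combination (log2 change −1.75, adjusted p = 0.016). Both separated by group in these 6 tumors as well. The T cell list had a median change of 1.16 there with 3 of 23 genes called, the GTPase list 0.98 with 1 of 18, and the erythroid list −2.12 with 0 of 6. Over all genes tested the median there was −0.0009 and 3.35% were called. Gjb5, which headed the raised genes by p under the antibody alone, had a change of 0.70 on top of PB-020 (adjusted p = 0.13), and the difference had an adjusted p of 1.

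**Figure D5:**
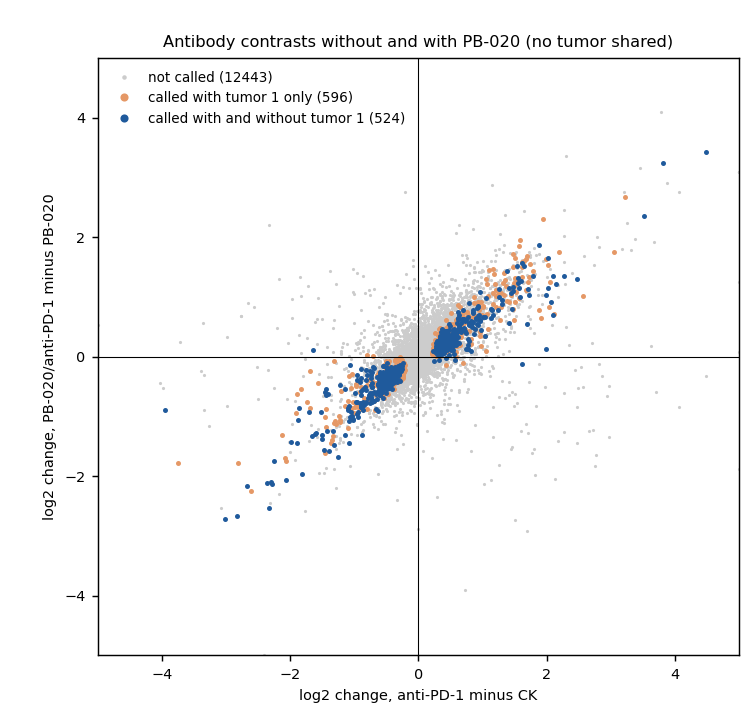
Each point is a tested gene, with its log2 change for anti-PD-1 minus CK (horizontal) and for PB-020/anti-PD-1 minus PB-020 (vertical). Values past 5 are drawn at the edge, grey genes were not called, orange genes were called with tumor 1 only, blue genes held, and called genes lie almost all in the lower left and upper right of the plot, 559 of 567 raised and 550 of 553 lowered.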

How the data were processed

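RNA from 12 MC38 tumors, 3 in each of 4 groups, was sequenced as 150-base read pairs. The study's methods name Bowtie2 with default settings and RSEM on mm10 or hg19, and the submitters' processing notes name HISAT, Bowtie2 and GRCm38.p6. Which aligner made the deposited table is not settled by these sources. The deposited table holds expected counts from RSEM (91% of them whole numbers) and the authors' FPKM and TPM for 18211 genes. TPM and the authors' group averages and comparisons were not used. FPKM was used for levels, and expected counts were rounded for tests.

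All 12 libraries were fitted as 4 group means with edgeR 4.0.16 in R 4.3.3 (quasi-likelihood, robust, TMM, filterByExpr with a minimum count of 10). P values were adjusted by Benjamini-Hochberg over all genes tested, with a threshold of 0.05, and the standard error was the log2 change divided by the square root of F. Alternatives used DESeq2 1.42.0 and limma 3.58.1, and 1 alternative, the 6 libraries less anti-PD-1 tumor 1, was chosen after seeing the data. In simulated counts for anti-PD-1 versus CK, over 13563 genes, the edgeR test recovered 40 of 67 genes changed 1.5-fold, 52 of 67 changed 2-fold and 53 of 66 changed 3-fold, and called 13 of 13363 unchanged genes.

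The 45 gene lists (833 of 840 entries in the table) and the comparison itself were chosen with earlier results of these data known. Named genes are list members and genes called with and without anti-PD-1 tumor 1 in the same direction, with 3 tumors on one side of the 3 CK tumors and a mean of at least 1 FPKM in a group: 12 each way by smallest p and 6 each way by largest change, with Pdcd1, Cd274 and the 6 genes highest in anti-PD-1 tumor 1. Gene coordinates and promoter windows are from RefSeq on GRCm38.p6, to which 18091 genes were matched. Some genes are not reported here.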

Additional observations from a re-analysis of the deposited data

How the results depend on the processing

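The number of genes called for anti-PD-1 versus CK, 1120, became 3 with only the 6 libraries of this comparison, 255 with those less anti-PD-1 tumor 1 (130 raised, 125 lowered, 193 shared with the 1120) and 1839 with voom quality weights, and ranged from 137 to 1905 when 1 tumor was left out. DESeq2 called 1672 (902 raised, 770 lowered). limma on log2(FPKM + 1) called 1035, 643 of them lowered, and on log2(FPKM + 0.1) 1069, 647 of them lowered, against 553 of the 1120. The count at the study's fold and p, 974, became 461 with limma on log2(FPKM + 1) and 530 with a test of each gene's FPKM alone (210 raised, 320 lowered), and ranged from 744 to 1420 with 1 tumor left out. On top of PB-020 the 455 genes became 1109 with DESeq2, 2133 with voom quality weights and 1901 with a muscle covariate, and 0 to 397 with 1 tumor left out, 0 without combination tumor 1. The cause of these shifts was not tested. The difference between the antibody contrasts ranged from 0 to 1 called genes with 1 tumor left out. Of the genes named by rule, 0 reversed under any alternative. With only the 6 libraries most of them, 31, lost their call and 7 were unchanged. Genes called in neither fit, such as Cd274 (edgeR adjusted p = 0.23 with the 6 libraries), count as unchanged. Ido1, Ifng and Pdcd1 were among those that lost their call, with edgeR adjusted p of 0.056, 0.067 and 0.073 in that fit.

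Replicate numbers did not pair the tumors: same-numbered CK and anti-PD-1 tumors correlated at 0.0633, 0.289 and −0.0254 in their deviations from the group means. With a replicate block edgeR called 870 genes for anti-PD-1 versus CK, 908 at the study's fold and p, 320 on top of PB-020 and 0 for the difference. Totals were 16545394 to 17217035 expected counts a library, and how depth limits the calls was not tested.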

Other observations

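Among the genes that stood highest in anti-PD-1 tumor 1 relative to the other anti-PD-1 tumors were Myh2, Myh4, Myoz2, Pdk4 and Col6a5. The first 3 encode proteins of the skeletal muscle sarcomere. Myh4 was at 21.6 FPKM in tumor 1, 0.06 and 0.78 FPKM in tumors 2 and 3, and 0.16, 0.18 and 0.25 FPKM in CK.

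Calls in the lists of cell metabolism and stress stand beside 4.18% raised, 4.08% lowered and 1.93% held each way over all genes tested. Of 19 heat shock chaperone genes Hsp90aa1 and Hspd1 were raised and held without tumor 1, with log2 changes of 0.44 and 0.31 (edgeR adjusted p = 0.045 and 0.025). Of 27 oxidative phosphorylation genes Cycs, the electron carrier cytochrome c, and Cox5a were raised, and Cycs held (0.38). Of 24 cholesterol and fatty acid synthesis genes the desaturase gene Scd1 was lowered and did not hold, and 0 of 16 ATF4 stress genes passed with or without tumor 1. Among 16 ERK output genes Dusp4 and Phlda1 were raised and neither held, and among 6 IGF-binding protein genes Pappa was raised and Igfbp3 lowered, and neither held. The cadherin genes Cdh3 (log2 change 2.02) and Cdh13 (−0.43) were raised and lowered, and both held. Krt14, a basal keratin, was at 113.6, 76.0 and 89.1 FPKM in CK and at 167.6, 130.5 and 181.3 FPKM in anti-PD-1 (log2 change 0.85, adjusted p = 0.018) and did not hold. Cyr61 was raised and Zeb2 lowered among 18 mesenchymal genes, and neither held.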
